A study of Homo sapiens with 7 samples.

Results

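The genes described here are 34 genes of cholesterol and fatty acid synthesis and of its control, taken by symbol from the 59251 rows of a table of raw RNA-seq counts per gene. They are 18 enzymes from acetoacetyl-CoA to cholesterol, 3 sterol uptake or transport genes and 5 enzymes of fatty acid synthesis. A further 5 are regulators of the transcription factors named sterol regulatory element-binding proteins (SREBPs, the factors themselves included). The last 3 are genes of sterol export or lipoprotein receptor degradation that answer to the oxysterol receptor LXR. The RNA came from H9, an established human embryonic stem cell line held in RSeT, a medium for the naive state, and then transfected with guide RNA plasmids. The groups are CTRL (n = 4) and DJL1 (n = 3), and their titles are the only labels that tell them apart. The series title concerns LINE1 elements at the distal junctions of ribosomal DNA, but what protein the guides direct, and what CTRL cells received, is not given in the sources used here. Both groups were in 10 nM DZNep, which lowers histone methylation, and 5 nM TSA, which blocks histone deacetylases. For the initial 16 h both also had the CEPT cocktail of Chroman 1, Emricasan, Polyamine and Trans-ISRIB, a set of survival agents. RNA was taken 48 h after transfection, so every value comes from cells of 1 line under these chromatin inhibitors.

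Cells make cholesterol from acetyl-CoA through mevalonate, farnesyl diphosphate, squalene and lanosterol. When sterols in the endoplasmic reticulum run low, the escort protein SCAP carries SREBPs to the Golgi, where cleavage frees a transcription factor. INSIG proteins hold SCAP back when sterols are plentiful. SREBP2 (gene SREBF2) mainly drives sterol genes, and SREBP1 (gene SREBF1) mainly drives fatty acid genes. Oxysterols act through LXR to raise genes for cholesterol export and to lower uptake.

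All 34 members passed the filter on low counts, and 16 were higher and 12 lower in DJL1 than in CTRL by edgeR's quasi-likelihood test (Benjamini-Hochberg adjusted p under 0.05 over 26062 tested genes). Sterol synthesis enzymes were mostly among the higher members (11 of 18), and 4 of the 5 fatty acid synthesis genes were lower. Over all tested genes 27.0% were called higher and 25.1% lower, together 52.0%. Most members are well expressed, and of the 32 with a mean of at least 10 CPM (counts scaled to a common library size) 15 were higher and 12 lower, where 26.7% and 43.4% of all 11124 such genes were. The share of members called higher was above that of all genes of such levels, and the share called lower was below it; no test was made of either. The median log2 fold change (log2FC, DJL1 over CTRL) of the members was 0.14, beside 0.01 over all tested genes and -0.09 over those with at least 10 CPM. Only NPC1L1 changed by more than 2-fold. The groups did not overlap for 29 members, 17 with DJL1 higher and 12 with DJL1 lower, where 53.6% of all tested genes showed no overlap, 27.4% with DJL1 higher and 26.2% with DJL1 lower.

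**Figure D1:**
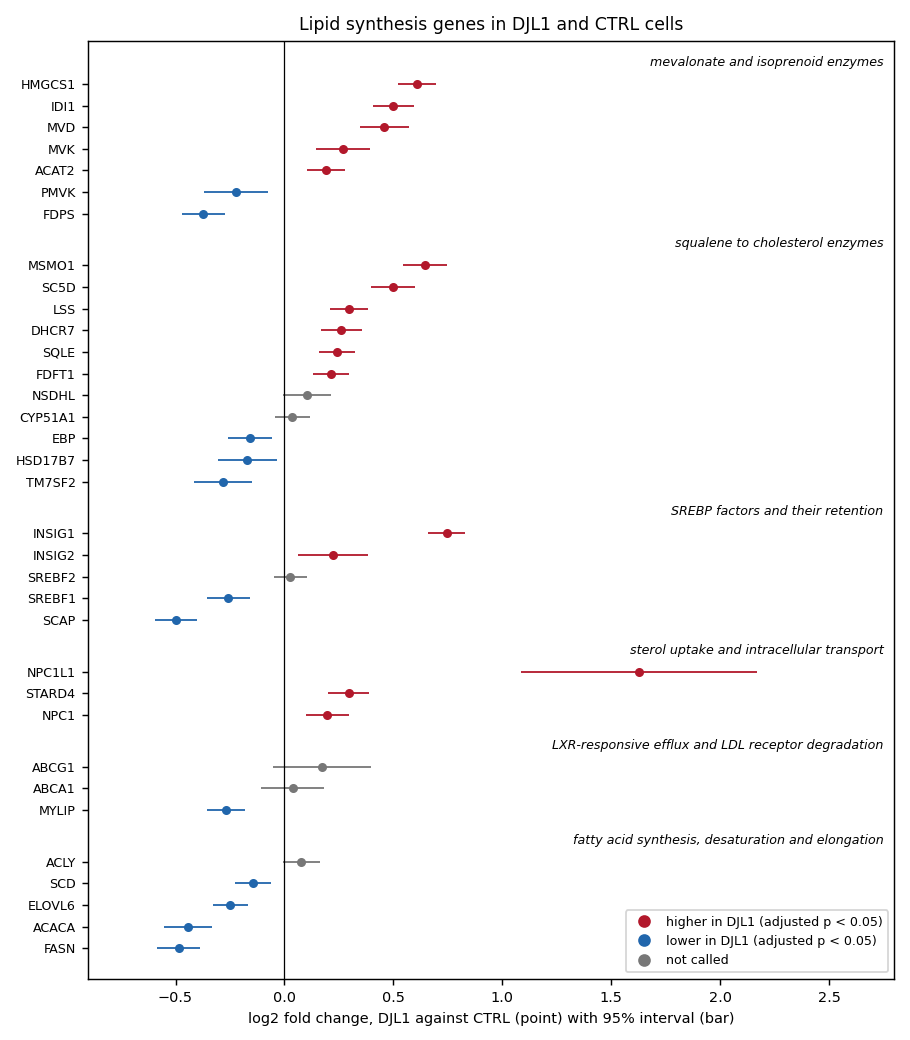
Log2 fold changes of the 34 genes in DJL1 against CTRL, grouped by role, with 95% intervals from edgeR as bars (x axis, log2 units) and colour for the call. Sterol enzymes lie mostly to the right of 0, FASN and ACACA to the left at -0.49 and -0.44, and NPC1L1 stands apart at 1.63 with the widest interval.

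Total counts ran from 62277489 to 76691997 in CTRL and from 34634882 to 37795742 in DJL1, so depth differed with the group. The spread between libraries over all genes (biological coefficient of variation) was 3.46% in CTRL and 13.8% in DJL1. For the members, the median coefficient of variation in CPM was 2.2% in CTRL and 4.93% in DJL1, and it was larger in DJL1 for 26 of 34. With all libraries thinned to the depth of the smallest, 15 members were higher and 11 lower. With limma-voom and a variance weight for each group, which allows for the unequal spread, the counts were also 15 and 11, and HSD17B7 (adjusted p = 0.104) and INSIG2 (adjusted p = 0.055) were not called. No batch is labelled, so handling that differed between the groups cannot be told apart from the transfection. Pluripotency markers were present. POU5F1, NANOG, SOX2, LIN28A, DPPA4 and TDGF1 summed to 8379 to 8562 CPM in CTRL and 7386 to 8115 CPM in DJL1. POU5F1 made up most of this sum and was not called (log2FC 0.01). The other 5 of these 6 were lower in DJL1 (log2FC -0.66 to -0.23), where 43.4% of all genes with at least 10 CPM were. Of the 5 naive markers, DNMT3L, SUSD2 and KLF17 were higher and DPPA5 lower in DJL1, and KHDC1L was at 0 in all libraries but DJL1 replicate 1. Of 8 fibroblast markers 4 were higher in DJL1, where 27.0% of all tested genes were, 2 were not called and 2 were too low to test. The summed level of the 8 was 522 to 538 CPM in CTRL and 789 to 912 CPM in DJL1. COL1A1 and COL1A2 made up most of it, while LUM and DCN reached at most 0.17 CPM in any library. Markers of hepatocytes or endoderm were low, with a sum over 6 genes of 2.49 to 3.18 CPM in CTRL and 3.86 to 4.59 CPM in DJL1. ALB, with 2 to 6 counts per CTRL library and 7 to 18 per DJL1 library, APOB and HNF4A were called higher. AFP and APOA1 were not called (log2FC -0.21 for each), and TTR was too low to test. The sum over 5 adipocyte markers was 0.56 to 0.77 CPM in CTRL and 1.21 to 1.77 CPM in DJL1. PLIN1 was called higher, CIDEC was not called (log2FC -0.30), and ADIPOQ, FABP4 and LEP were too low to test. The part of these marker genes in the results below was not tested. In a bulk sample, fewer cells of a kind and less RNA per cell cannot be told apart.

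Promoter sequences are shown for members that differ in direction, since SREBPs bind promoters together with the factor NF-Y, which recognises CCAAT. The RefSeq promoter table (GRCh38.p14) held 29 of the 34 members, without ACAT2, FDFT1, SQLE, ABCG1 and FASN. Each sequence is the 250 bases before the start site on the gene's strand. Capitals mark CCAAT, the E-box CACGTG, and CACNCCAC, the core of the sterol regulatory element, each searched on both strands and marked in its reverse complement where it lies on the other one.
INSIG1, at chr7:155297628-155297877 (+ strand), higher in DJL1: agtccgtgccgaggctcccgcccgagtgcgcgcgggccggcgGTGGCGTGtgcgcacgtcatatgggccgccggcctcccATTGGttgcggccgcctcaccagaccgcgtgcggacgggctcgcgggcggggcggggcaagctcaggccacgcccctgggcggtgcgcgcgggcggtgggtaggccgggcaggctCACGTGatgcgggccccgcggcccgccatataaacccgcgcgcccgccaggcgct
MSMO1, at chr4:165327419-165327668 (+ strand), higher in DJL1: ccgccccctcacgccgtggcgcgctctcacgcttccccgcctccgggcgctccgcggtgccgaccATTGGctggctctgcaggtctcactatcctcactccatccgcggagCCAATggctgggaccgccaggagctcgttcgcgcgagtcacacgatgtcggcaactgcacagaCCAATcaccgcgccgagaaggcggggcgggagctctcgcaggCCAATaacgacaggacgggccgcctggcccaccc
HMGCS1, at chr5:43313413-43313662 (- strand), higher in DJL1: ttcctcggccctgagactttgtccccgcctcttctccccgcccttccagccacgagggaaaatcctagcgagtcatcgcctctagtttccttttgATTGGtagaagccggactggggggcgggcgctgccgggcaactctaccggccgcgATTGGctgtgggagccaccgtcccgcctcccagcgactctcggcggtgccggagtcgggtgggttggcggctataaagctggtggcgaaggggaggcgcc
SREBF2, at chr22:41832855-41833104 (+ strand), not called: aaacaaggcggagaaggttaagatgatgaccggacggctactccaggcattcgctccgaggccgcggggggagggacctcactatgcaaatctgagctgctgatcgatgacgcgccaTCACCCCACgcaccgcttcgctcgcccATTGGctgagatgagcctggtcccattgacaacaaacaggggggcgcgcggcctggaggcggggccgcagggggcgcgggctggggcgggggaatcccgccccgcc
SCD, at chr10:100346983-100347232 (+ strand), lower in DJL1: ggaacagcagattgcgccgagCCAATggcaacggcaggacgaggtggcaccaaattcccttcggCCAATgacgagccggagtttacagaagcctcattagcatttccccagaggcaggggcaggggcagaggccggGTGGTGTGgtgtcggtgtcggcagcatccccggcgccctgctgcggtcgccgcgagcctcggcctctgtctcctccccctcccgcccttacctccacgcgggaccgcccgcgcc
ELOVL6, at chr4:110198616-110198865 (- strand), lower in DJL1: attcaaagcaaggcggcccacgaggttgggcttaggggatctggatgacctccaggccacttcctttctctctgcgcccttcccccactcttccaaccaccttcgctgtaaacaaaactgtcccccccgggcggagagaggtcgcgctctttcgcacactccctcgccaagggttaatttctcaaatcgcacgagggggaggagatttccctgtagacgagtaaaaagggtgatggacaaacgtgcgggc

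MSMO1 holds 4 CCAAT boxes and HMGCS1 2 in the stretch shown, and both were higher in DJL1. Of the lower genes shown, SCD holds 2 CCAAT boxes and 1 CACNCCAC and ELOVL6 none of the 3 motifs. Boxes were not particular to higher members, since the lower FDPS and EBP each hold 3 CCAAT boxes and NSDHL, not called, holds 5. SREBF2 has the longer form TCACNCCAC, which contains CACNCCAC, with its first base 133 bases before the start. INSIG1 has 1 copy of each of the 3 motifs. In the full windows (250 bases before to 50 after the start, any window of a gene), CCAAT was found in 21 of the 29 members, in 13 of 15 sterol enzymes and in 3 of 4 fatty acid genes, beside 39.7% of all 27305 symbols and 34.6% of all 35116 windows. CACNCCAC was found in 7 of the 29 members, beside 7.05% of symbols and 5.87% of windows. CACGTG was found in 5 members, beside 8.77% of symbols and 7.26% of windows. TCACNCCAC was found in SREBF2 alone among the members, beside 1.39% of symbols and 1.13% of windows. These are matches of letters in a short window, and binding was not measured.

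The early steps of the pathway, from acetoacetyl-CoA to farnesyl diphosphate, held 5 higher and 2 lower members of 7. Among all genes with at least 10 CPM, 26.7% were higher and 43.4% lower. HMGCS1 (chromosome 5, 43287470 to 43313412), the synthase that makes HMG-CoA, stood at 290.0, 281, 287 and 291 CPM in CTRL replicates 1 to 4 and at 453, 411 and 449 CPM in DJL1 replicates 1 to 3. No DJL1 library came near the CTRL range, and replicate 2 was the lowest of the 3. The means were 287 ± 4.52 CPM (SD, n = 4) and 438 ± 23.2 CPM (SD, n = 3), a log2FC of 0.61 ± 0.04 (SE, adjusted p = 1.1e-08). IDI1, the isomerase that turns isopentenyl into dimethylallyl diphosphate, rose from 85.1 ± 2.02 to 120.3 ± 6.62 CPM (log2FC 0.50). MVD, the decarboxylase that yields isopentenyl diphosphate, rose from 66.3 ± 1.29 to 91.1 ± 8.07 CPM (log2FC 0.46), with DJL1 replicate 1 at 81.8 CPM below the other DJL1 libraries at 95.9 and 95.7 CPM. Mevalonate kinase (MVK) and the thiolase ACAT2, which supplies acetoacetyl-CoA, rose less, by 0.27 and 0.19 on the log2 scale.

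Enzymes of the same stretch also went the other way. FDPS, which joins the isoprenoid units into farnesyl diphosphate, stood at 53.5, 54.9, 51.5 and 52.7 CPM in CTRL and at 40.0, 40.8 and 42.3 CPM in DJL1. The groups were well separated and the log2FC was -0.37 ± 0.05 (SE, adjusted p = 6.3e-06). Phosphomevalonate kinase (PMVK), which acts between MVK and MVD, stood at 21.1 ± 1.00 CPM in CTRL (SD, n = 4) and 18.1 ± 1.27 CPM in DJL1 (SD, n = 3), with a log2FC of -0.22 (adjusted p = 0.012). With libraries thinned to equal depth, PMVK had a log2FC of -0.16 and was not called (adjusted p = 0.106). FDPS has 10 pseudogene rows in the table, whose counts came to 4.10% of its own.

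From squalene to cholesterol, 6 of 11 enzymes were higher, 3 lower and 2 not called. Of all genes with at least 10 CPM, 26.7% were higher and 43.4% lower. MSMO1 (chromosome 4, 165327669 to 165343164) is an oxidase in the removal of methyl groups from lanosterol products. It stood at 99.7, 98.7, 103 and 101 CPM in CTRL and at 171, 152 and 149 CPM in DJL1. DJL1 replicate 1 was the highest and all 3 lay far above CTRL, with a log2FC of 0.65 ± 0.05 (SE, adjusted p = 2.4e-08). SC5D, a sterol desaturase, rose from 71.7 ± 2.15 to 101 ± 6.51 CPM (log2FC 0.50). The other 4 rose by 0.21 to 0.30 on the log2 scale. They were lanosterol synthase (LSS), from 433 ± 5.58 to 532 ± 30.8 CPM, the final reductase DHCR7, from 104 ± 2.36 to 124 ± 7.30 CPM, squalene epoxidase (SQLE), from 175 ± 1.53 to 207 ± 9.23 CPM, and squalene synthase (FDFT1), from 267 ± 1.51 to 309.7 ± 13.9 CPM.

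CYP51A1, the lanosterol demethylase, stood at 90.3, 90.7, 88.2 and 91.5 CPM in CTRL and at 92.2, 92.1 and 93.2 CPM in DJL1. The ranges just missed each other, yet the log2FC was 0.04 with a 95% interval from -0.04 to 0.12 (adjusted p = 0.447), beside 0.65 for MSMO1, which acts later on the same sterols. NSDHL, the dehydrogenase after MSMO1, had overlapping groups and a log2FC of 0.10 (95% interval -0.01 to 0.21, adjusted p = 0.112), and was called only with the stricter filter of 1 CPM in at least 3 libraries (log2FC 0.13, adjusted p = 0.035). The lower members were the sterol reductase gene TM7SF2 (24.3 ± 1.34 to 20.0 ± 0.35 CPM, log2FC -0.28), the isomerase gene EBP (46.5 ± 1.52 to 41.7 ± 1.10 CPM, -0.16) and the reductase gene HSD17B7 (18.7 ± 0.40 to 16.6 ± 0.91 CPM, -0.17). HSD17B7 was barely past the threshold (adjusted p = 0.038). It was not called when any of CTRL replicates 1 to 4 or DJL1 replicates 1 or 3 was left out (log2FC -0.18 to -0.15, adjusted p = 0.060 to 0.096). Its 2 pseudogene rows held counts equal to 37.1% of its own.

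**Figure D2:**
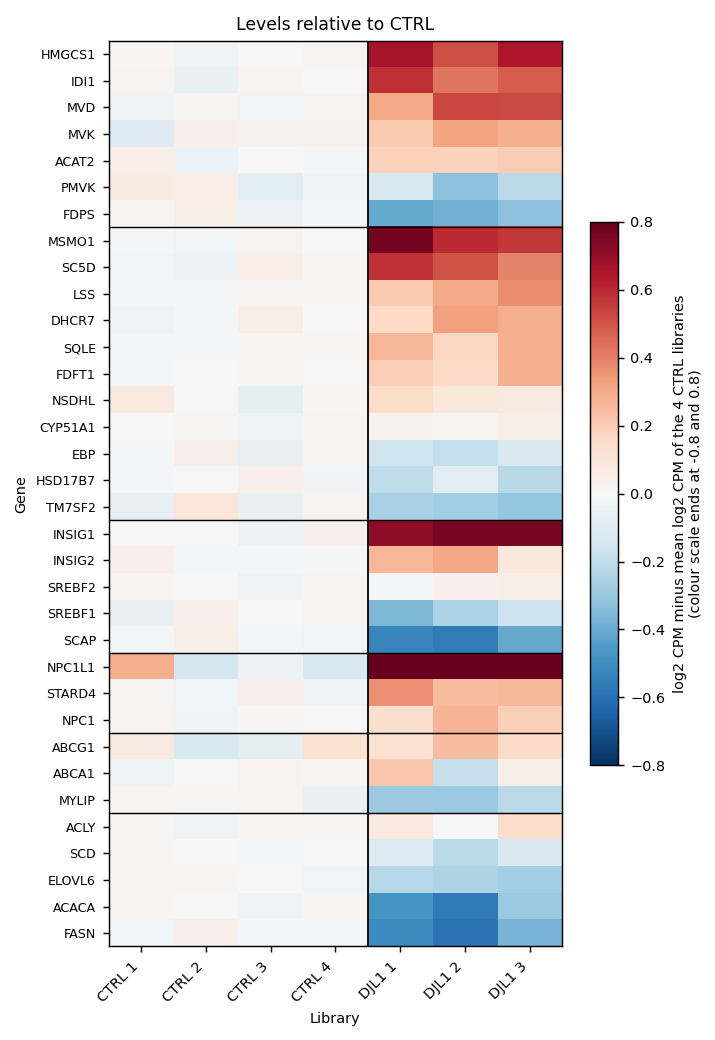
Log2 CPM of each gene (rows) in each of the 7 libraries (columns) minus the mean of the 4 CTRL libraries, with the black vertical line between CTRL and DJL1 and horizontal lines between roles. The CTRL columns are near 0, and the 3 DJL1 columns share their direction for most genes, with ABCA1 above CTRL in replicate 1 and below it in replicate 2.

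The regulators of SREBP went in different directions. INSIG1 (chromosome 7, 155297878 to 155310235), a retention protein whose own gene SREBPs activate, stood at 56.8, 57.2, 55.4 and 58.6 CPM in CTRL and at 93.6, 96.3 and 96.5 CPM in DJL1. The spread within each group was small beside the gap, and the log2FC was 0.74 ± 0.04 (SE, adjusted p = 1.3e-09). INSIG2, its weaker expressed relative, had a log2FC of 0.22 (12.2 ± 0.23 to 14.2 ± 1.15 CPM, adjusted p = 0.022). INSIG2 was not called without any one of CTRL replicates 2, 3 or 4 or DJL1 replicates 1 or 2 (log2FC 0.17 to 0.22, adjusted p = 0.053 to 0.088), nor after thinning (0.19, adjusted p = 0.091). SCAP, the escort, stood at 88.9, 92.4, 88.6 and 88.0 CPM in CTRL and at 61.9, 60.8 and 67.3 CPM in DJL1, the lowest fold change of the members, with FASN close to it (log2FC -0.50 ± 0.05, SE, adjusted p = 2.8e-07).

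SREBF2 (chromosome 22, 41833105 to 41907305) stood at 431, 428, 421 and 435 CPM in CTRL and at 426, 442 and 442 CPM in DJL1. These ranges overlapped, and the log2FC was 0.03 with a 95% interval from -0.05 to 0.10 (adjusted p = 0.569). SREBF1 was lower in DJL1, at 234, 251, 243 and 248 CPM in CTRL and 190, 204 and 218 CPM in DJL1 (log2FC -0.26 ± 0.05, SE, adjusted p = 2.4e-04). The table counts genes, so the SREBP1a and SREBP1c transcripts of SREBF1 were not told apart, and cleavage of the proteins was not measured. Per kilobase of exon (GENCODE release 29), INSIG1 was 94.0 ± 3.09% of SCAP in CTRL (SD, n = 4) and 223 ± 11.1% in DJL1 (SD, n = 3). Relative to SREBF2, INSIG1 was 23.1 ± 0.25% in CTRL and 38.1 ± 0.17% in DJL1. Scaling of the libraries cancels out of both ratios, but they restate the fold changes above and were not tested.

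**Figure D3:**
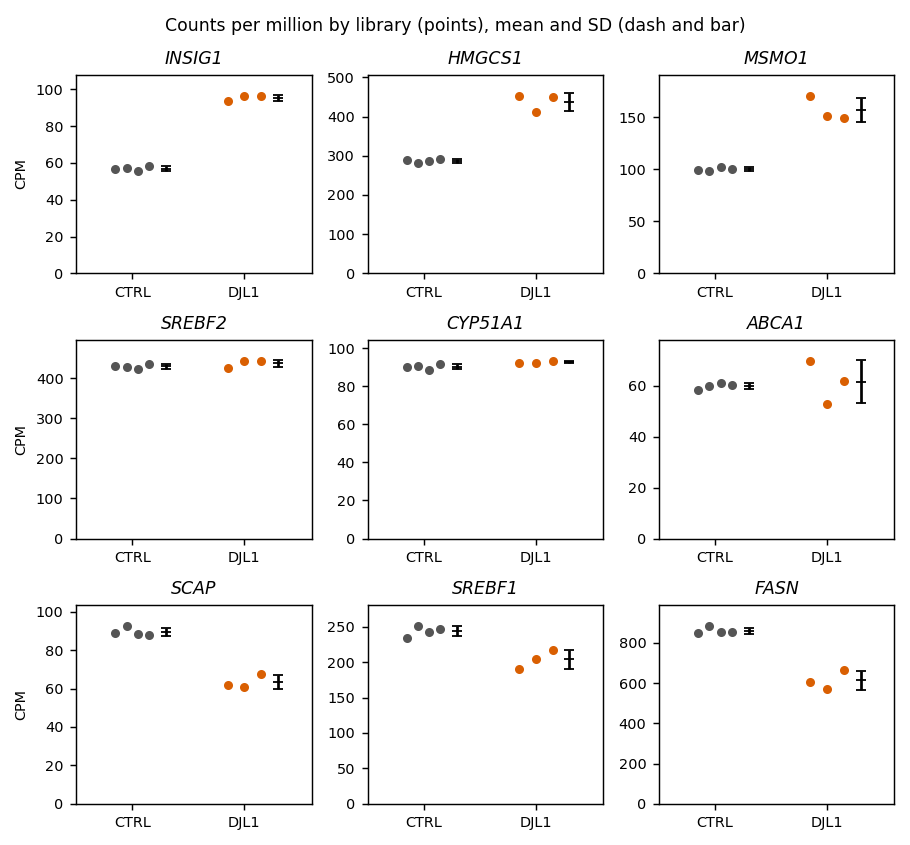
CPM (y axis, from 0) of 9 genes in each CTRL and DJL1 library as points, with the group mean and SD beside them. INSIG1, HMGCS1 and MSMO1 are higher in every DJL1 library, SCAP, SREBF1 and FASN are lower in every one, and SREBF2 and ABCA1 overlap.

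All 3 sterol uptake and transport genes among the members were higher in DJL1, where 27.0% of all tested genes were. Of 13 other sterol trafficking and storage genes, 5 were higher and 6 lower. STARD4, a carrier of sterols between membranes, rose from 56.6 ± 1.29 to 69.4 ± 3.05 CPM (log2FC 0.29), and NPC1, which exports cholesterol from lysosomes, from 50.1 ± 0.85 to 57.4 ± 2.88 CPM (0.20). NPC1L1, known as the sterol uptake protein of the gut, was the lowest expressed member. It had 46, 41, 36 and 36 counts in CTRL replicates 1 to 4 and, in the shallower DJL1 libraries, 51, 80 and 73 counts, or 0.60 ± 0.09 CPM (SD, n = 4) and 1.86 ± 0.48 CPM (SD, n = 3). Its log2FC was 1.63 ± 0.25 (SE, adjusted p = 6.3e-05).

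Of the 3 LXR-responsive genes of sterol export and lipoprotein receptor degradation, 1 was lower and 2 were not called. Over all tested genes 25.1% were lower. The other members were not sorted by their response to LXR. By edgeR 0 of the 3 were higher also at an unadjusted p under 0.05, by DESeq2 0 and by limma-voom 0 at an adjusted p under 0.05. MYLIP, a ubiquitin ligase that marks lipoprotein receptors for degradation, stood at 105, 105, 106 and 100.4 CPM in CTRL and at 84.9, 84.7 and 89.6 CPM in DJL1 (log2FC -0.27 ± 0.04, SE, adjusted p = 5.1e-05). The exporter ABCA1 varied most between DJL1 libraries among the members with at least 10 CPM. It stood at 69.8, 52.9 and 62.0 CPM in DJL1, on either side of the CTRL range of 58.5 to 61.2 CPM (log2FC 0.04, 95% interval -0.11 to 0.18, adjusted p = 0.673). The sign of its fold change turned with the library left out. Without DJL1 replicate 2 the log2FC was 0.12 and was called (adjusted p = 0.048), and without DJL1 replicate 1 it was -0.07 and was not (adjusted p = 0.314). ABCG1, another exporter, stood at 6.02 ± 0.48 and 6.78 ± 0.31 CPM with overlapping groups (log2FC 0.17, 95% interval -0.05 to 0.40, adjusted p = 0.185).

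Fatty acid synthesis genes among the members were lower in 4 of 5 cases, where 43.4% of all genes with at least 10 CPM were. Of 24 other tested genes of fatty acid synthesis, elongation and desaturation, 8 were lower and 5 higher. FASN (chromosome 17, 82078338 to 82098236), the fatty acid synthase, stood at 847, 883, 854 and 854 CPM in CTRL and at 605, 572 and 664 CPM in DJL1. Replicate 3 was the nearest to CTRL, and the log2FC was -0.49 ± 0.05 (SE, adjusted p = 4.7e-07). ACACA, the carboxylase that makes malonyl-CoA, followed the same order of libraries, at 366, 363, 355 and 364 CPM in CTRL and 261, 244 and 295 CPM in DJL1 (log2FC -0.44 ± 0.05, SE, adjusted p = 3.8e-06). The elongase ELOVL6 fell from 108 ± 1.08 to 91.2 ± 1.43 CPM (log2FC -0.25) and the desaturase SCD from 1270.1 ± 7.07 to 1149 ± 46.9 CPM (-0.14). ACLY, which makes cytosolic acetyl-CoA for both pathways, stood at 299, 292, 299 and 300.4 CPM in CTRL and 315, 298 and 329 CPM in DJL1, with overlapping groups (log2FC 0.08, 95% interval -0.01 to 0.16, adjusted p = 0.118). Without DJL1 replicate 2 it was called higher (0.10, adjusted p = 0.010), as it was with upper quartile factors (0.10, adjusted p = 0.042) and the stricter filter (0.11, adjusted p = 0.019).

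Per kilobase of exon the highest member in CTRL was SCD, at 237 ± 1.32 CPM per kb (SD, n = 4), followed by FASN at 100.4 ± 1.86 and HMGCS1 at 81.5 ± 1.28 CPM per kb. In DJL1 (n = 3) HMGCS1, at 124 ± 6.59 CPM per kb, was above FASN, at 71.7 ± 5.48. As a share of FASN within a library, HMGCS1 was 81.2 ± 2.68% in CTRL and 174 ± 8.87% in DJL1. That share restates the opposite fold changes of both genes and was not tested. LSS (80.7 ± 1.04 CPM per kb) and SREBF2 (79.9 ± 1.09) lay within a replicate SD of HMGCS1 or of each other in CTRL, so their order there is not resolved. At the low end, INSIG2, ABCG1 and NPC1L1 were at 4.70, 1.32 and 0.11 CPM per kb. Summed over the 18 sterol enzymes the level was 616, 616, 618 and 622 CPM per kb in CTRL and 754, 741 and 766 CPM per kb in DJL1. The sum over the 5 fatty acid genes, of which SCD is the largest part, was 456, 456, 452 and 454 CPM per kb in CTRL and 400.1, 375 and 412 CPM per kb in DJL1. Their ratio, fatty acid over sterol, was 0.735 ± 0.005 in CTRL and 0.525 ± 0.016 in DJL1 (SD), with no overlap and no test, since the sums were formed with the directions known.

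**Figure D4:**
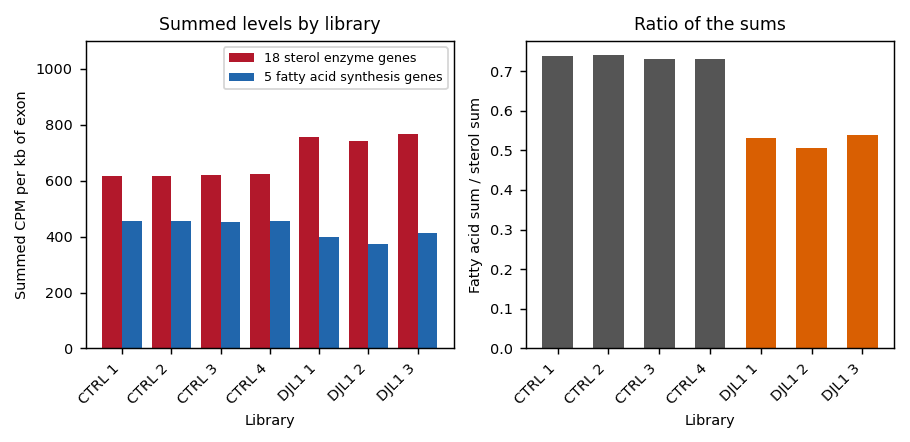
Left, summed CPM per kb of exon for the 18 sterol enzymes and the 5 fatty acid synthesis genes in each library (x axis). Right, the ratio of the fatty acid sum to the sterol sum, which lies between 0.730 and 0.740 in the 4 CTRL libraries and between 0.506 and 0.538 in the 3 DJL1 libraries.

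The 3 DJL1 libraries did not rank alike over the members. Replicate 2 was the lowest of the 3 for 16 members, replicate 1 for 11 and replicate 3 for 7, while replicate 3 was the highest for 15. The median of the members' log2 CPM relative to CTRL was 0.14, 0.12 and 0.11 in DJL1 replicates 1 to 3. In the authors' deposited table of the same comparison, all 34 members were listed, 17 higher and 11 lower at an adjusted p under 0.05. Of these calls in the authors' deposited table, 27 have the direction found here, and its log2FCs differ from those here by at most 0.02. HSD17B7 was called here only (adjusted p = 0.056 in the authors' deposited table) and ACLY in the authors' deposited table only (adjusted p = 0.027). The library kit keeps strand, but the strand setting of the counting is not given in the sources used here. In GENCODE, 12 members share exon sequence with a gene on the opposite strand, namely HMGCS1, MVK, IDI1, FDPS, LSS, FDFT1, CYP51A1, SREBF2, NPC1, STARD4, ACLY and ACAT2 (which overlaps SOD2 and TCP1), so reads of both could be mixed there. On the same strand, TM7SF2 shares exon sequence with VPS51, and CYP51A1 with 2 genes that have only clone-based names. MSMO1, INSIG1, SCAP, SREBF1, FASN, ACACA and SCD share none.

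Among 114 other genes of the same pathways, 112 were tested, of which 32 were higher and 45 lower (median log2FC -0.05). The share called higher lies near the background given above, 27.0% over all tested genes and 26.7% over those with at least 10 CPM. The share called lower lies above the 25.1% of all tested genes. It is near the 43.4% of those with at least 10 CPM, a level that some of the 112 did not reach. The counts of the lists that follow are descriptions from which nothing particular to a list is read. Other sterol and isoprenoid synthesis genes were lower in 6 of 12 cases and higher in 2. COQ2, which attaches the isoprenoid tail of coenzyme Q, fell from 12.8 ± 0.17 to 7.50 ± 1.21 CPM (log2FC -0.77), ERG28, a scaffold of sterol enzymes, rose by 0.30 on the log2 scale, and the cytochrome b5 reductase gene CYB5R3 had a log2FC of -0.23. Of 11 further genes of SREBP processing and degradation 6 were lower and 2 higher. PAQR3, a Golgi protein that tethers SCAP, rose from 75.5 ± 2.36 to 113 ± 3.34 CPM (log2FC 0.58), while ERLIN2 (-0.51), of the endoplasmic reticulum degradation machinery, and the ubiquitin ligase gene RNF139 (-0.42) were lower. Sterol trafficking and storage genes were split, with 5 higher and 6 lower of 13. LRP8, a lipoprotein receptor, fell from 52.9 ± 0.98 to 37.6 ± 0.28 CPM (log2FC -0.49), the sterol carrier gene GRAMD1A had a log2FC of -0.47, and the lysosomal lipase gene LIPA rose by 0.50.

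The LXR receptor genes and further LXR-responsive genes had 3 higher and 2 lower of 9, among them LPCAT3 (log2FC -0.55), PLTP (0.29) and ABCG4 (0.46). Of 6 tested oxysterol and bile acid enzymes 2 were higher and 1 lower. CH25H, which makes an oxysterol that blocks SREBP release and is known as an interferon-induced gene, stood at 2.09, 2.03, 1.56 and 1.80 CPM in CTRL and 5.53, 4.59 and 5.72 CPM in DJL1, a log2FC of 1.5 ± 0.15 (SE, adjusted p = 7.5e-07). CYP27A1, a sterol hydroxylase, rose by 0.73 on the log2 scale and HSD3B7, of bile acid synthesis, had a log2FC of -0.52. Other genes of fatty acid synthesis, elongation and desaturation were higher in 5 and lower in 8 of 24 cases. Here ME1, the malic enzyme that supplies NADPH, rose from 12.1 ± 0.63 to 21.4 ± 0.77 CPM (log2FC 0.82), the acetyl-CoA synthetase gene ACSS2 from 26.2 ± 0.82 to 39.9 ± 3.43 CPM (0.61), the elongase gene ELOVL4 by 0.56 and SCD5, a low relative of SCD, from 0.80 ± 0.12 to 2.19 ± 0.34 CPM (1.44).

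Genes of fatty acid activation and glycerolipid assembly were higher in 8 and lower in 6 of 17 cases. AGPAT2, an acyltransferase of phosphatidic acid synthesis, rose from 40.6 ± 2.19 to 80.8 ± 8.68 CPM (log2FC 0.99), the acyl-CoA synthetase genes ACSL1 and ACSL6 by 0.76 and 1.16, and the phosphatidate phosphatase gene LPIN2 by 0.58. Fatty acid oxidation genes were lower in 10 and higher in 5 of 20 cases, close to the 43.4% and 26.7% of all genes with at least 10 CPM. CPT1C, a carnitine palmitoyltransferase relative, had a log2FC of -0.49 and the thiolase gene ACAA2 of -0.29, whereas the weakly expressed dehydrogenase gene ACADL rose from 0.71 ± 0.19 to 2.07 ± 0.48 CPM (1.54).

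**Figure D5:**
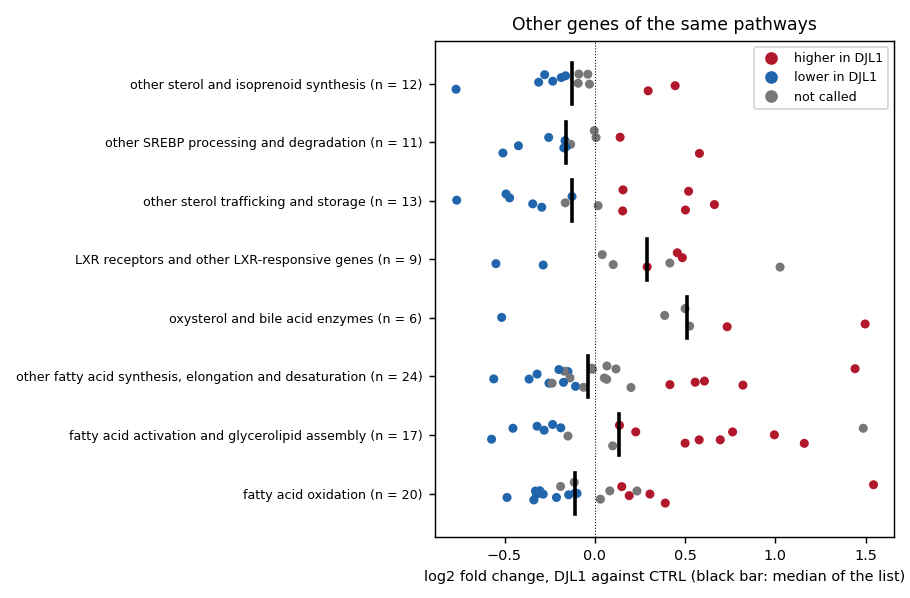
Log2 fold changes (x axis) of 112 tested genes in 8 further lists of the same pathways, 1 point per gene, coloured by call, with the list median as a black bar. Each list holds genes on both sides of 0, and the medians run from -0.16 for SREBP processing to 0.51 for oxysterol and bile acid enzymes.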

How the data were processed

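Poly(A) RNA was sequenced from 4 CTRL and 3 DJL1 libraries. The deposited table holds raw counts per gene; per the submitters' processing notes, Trim Galore 0.4.0, HISAT2 2.2.1 and featureCounts (Subread 1.5.0) were used, with the builds GRCh38 and hg38. The authors' deposited comparison table gives log2 fold changes and p-values. It is quoted only where named.

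Members and gene lists were chosen with earlier results of these data known. Counts were tested with edgeR 4.0.16 (quasi-likelihood, robust, TMM factors, group as the only term, filterByExpr with a minimum count of 10) in R 4.3.3, and p-values were adjusted by Benjamini-Hochberg over all tested genes, with a threshold of 0.05. CPM used TMM-scaled library sizes. The number of replicates limits the precision, and no label states separate cultures, so p-values, intervals and SDs describe sample-to-sample spread that may be purely technical. Other genes of each list are named by rule: the 3 with the smallest adjusted p, and any called gene with a log2 change of at least 1. Exon lengths and exon overlaps are from GENCODE release 29, and gene positions and promoters are from RefSeq. The alternatives were DESeq2 1.42.0, limma-voom (limma 3.58.1) without and with a variance weight for each group, other scaling, filters, thinning, a replicate block and leaving out each library, and for counts of calls a threshold of 0.01. The edgeR, DESeq2 and plain limma-voom fits were run on simulated data in which both groups had the same spread. The unequal spread seen here, the variance weights and the replicate block were not covered. Same-numbered CTRL and DJL1 libraries did not deviate together (correlations -0.01, -0.04 and -0.02), so the numbers were not used as pairs.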

Additional observations from a re-analysis of the deposited data

Results flagged for a closer look

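In 4 of the 34 members, 1 of the 4 CTRL libraries stood away from the other 3 by more than Dixon's critical value of 0.829 for the gap divided by the range, which chance gives in about 1 in 20 groups. For MVK the low library was CTRL replicate 1, at 21.9 CPM beside 24.0 to 24.2 CPM (gap over range 0.951); without it the log2 fold change was 0.24 (adjusted p = 0.0063), and MVK was still called. INSIG2 was high in CTRL replicate 1, at 12.5 CPM beside 12.1 CPM (0.910); without that library the log2 fold change was 0.24 (adjusted p = 0.038). MYLIP was low in CTRL replicate 4, at 100.4 CPM beside 105 to 106 CPM (0.867), and its log2 fold change without it was -0.28. ACLY was low in CTRL replicate 2, at 292 CPM beside 299 to 300.4 CPM (0.836), and without it was not called (log2 fold change 0.06, adjusted p = 0.255).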

How the results depend on the processing

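No member changed direction past the threshold under the 16 alternatives, and 24 of the 28 called members were called under every one. PMVK, HSD17B7, EBP and INSIG2 were lost in at least 1 of them, and NSDHL, ABCA1 and ACLY, not called in the report, were called in at least 1. Under these the number of members called higher ran from 15 to 18 and lower from 10 to 12; with the threshold at an adjusted p under 0.01 in place of 0.05, 15 were higher and 9 lower. The members' median log2 fold change was 0.13 with DESeq2 and with relative log expression factors, 0.16 with upper quartile factors, 0.11 with no filter, 0.17 with at least 1 CPM in 3 libraries, 0.11 after thinning and 0.15 with the replicate block, and 0.11 to 0.16 when 1 library was left out. With the replicate block 15 members were higher and 10 lower; HSD17B7, EBP and INSIG2 were not called, and over all genes 5863 were higher and 5614 lower. The causes of these differences were not tested. After thinning to the smallest library, NPC1L1, with 36 to 80 counts per library, was still called (log2 fold change 1.52, adjusted p = 4.4e-04), while PMVK and INSIG2 were not.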
